A study of Mus musculus with 9 samples.

Results

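Transcripts of 10 genes for subunits of the NURF, ISWI and BAF chromatin remodellers were followed in mouse embryonic stem cells (ESCs) with a mutated *Rbbp4* gene. The genes were taken by symbol (*Bptf*, *Smarca1*, *Smarca5*, *Baz1a*, *Smarca4*, *Smarca2*, *Smarcc1*, *Smarcc2*, *Arid1a* and *Arid1b*), and all 10 of them were found among the 25239 gene symbols with counts. RNA was sequenced from E14 ESCs of 3 genotypes, with 3 libraries each. The control cells were Rbbp4+/+. Rbbp4Ins/Ins cells (Ins/Ins below) carry a short in-frame insertion on both alleles, and Rbbp4Ins/Del cells (Ins/Del below) carry the insertion on one allele and an in-frame deletion on the other. Both alleles lie in the part of the gene that encodes the start of the protein. Cells of every genotype have the strain label 12910la and were grown in medium with fetal bovine serum and leukemia inhibitory factor. Each mutant line is 1 clone derived with Cas9, so an effect of the *Rbbp4* genotype and a property of the clone cannot be told apart. The labels do not say whether libraries of a line came from separate cultures, so the p-values measure the spread between libraries, which may be technical.

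Chromatin remodellers use ATP to slide, space or evict nucleosomes. NURF pairs an ISWI-type ATPase, SMARCA1 (SNF2L) or SMARCA5 (SNF2H), with the large scaffold BPTF, whose PHD finger and bromodomain read modified histone tails, and with the histone-binding proteins RBBP4 or RBBP7. The same ATPases form ACF and CHRAC with BAZ1A, complexes that space nucleosomes evenly. BAF complexes are built around the ATPase BRG1 (*Smarca4*) or BRM (*Smarca2*) and the scaffold proteins BAF155 (*Smarcc1*) and BAF170 (*Smarcc2*), and canonical BAF adds ARID1A or ARID1B. ESCs are known for a BAF assembly that holds BRG1 and BAF155 rather than BRM and BAF170.

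Libraries held 15838064 to 21366868 counted reads. *Rbbp4* itself had 9932, 9965 and 10117 normalized counts (counts scaled to a common library size) in the control, 5486, 5551 and 5776 in Ins/Ins and 10129, 10344 and 10602 in Ins/Del, and it fell in Ins/Ins but did not pass the test in Ins/Del (log2 fold change -0.84 ± 0.029 (SE, adjusted p = 1.78e-25) and 0.050 ± 0.028 (SE, adjusted p = 0.11)). Counts of this transcript do not show the small in-frame changes themselves. At an adjusted p of at most 0.01, 29.0% of all tested genes rose and 29.4% fell in Ins/Ins. In Ins/Del 30.6% rose and 31.9% fell. Of 10 ESC markers, 7 rose and 2 fell in Ins/Ins, 6 rose and 1 fell in Ins/Del, and their summed level was 101144 to 105819 normalized counts in the control, 127681 to 129597 in Ins/Ins and 126277 to 129675 in Ins/Del. Of 6 neural progenitor markers 3 were tested and 2 fell in each mutant, with a summed level of the list of 2566 to 2573 in the control, 421 to 443 in Ins/Ins and 383 to 414 in Ins/Del, and *Neurog2* had no more than 3 reads in every library. In this sum *Nes* fell from a mean of 1744 to 230 and 205, and *Pax6* from 678 to 73.6 and 30.1. *Sox1* did not pass in either mutant, with means of 131, 122 and 158. Of 6 trophectoderm markers 5 were tested, of which 1 rose and 4 fell in Ins/Ins and 4 fell in Ins/Del (summed levels in the same order 4690 to 5164, 2348 to 2497 and 1539 to 1625). Here *Krt8* fell from a mean of 1503 to 234 and 187, and *Krt18* from 2091 to 381 and 266, while *Tfap2c* had means of 1260, 1763 and 1086. The remaining lists also held genes that went opposite ways. Of 7 primitive endoderm markers 6 were tested, of which 1 rose and 2 fell in Ins/Ins and 4 rose and 2 fell in Ins/Del. Their sum was 371 to 399, 210 to 271 and 316 to 346, in which *Dab2* fell from a mean of 265 to 104 and 109, while *Sox7* rose from 22.2 to 70.8 and 106. Of 6 mesoderm markers 4 were tested and 1 rose and 1 fell in each mutant, with *Mesp1* at most at 3 reads. *Eomes* rose from 193 to 322 and 271 and made up most of their sum (246 to 280, 338 to 371 and 286 to 305), and *T* fell from 44.6 to 2.34 and 0.301. Of 7 fibroblast markers, with *Lum* at most at 3 reads, 4 were tested and 1 rose and 3 fell in each mutant. Their sum was 578 to 678, 256 to 283 and 342 to 364, in which *Col1a1* fell from 287 to 17.0 and 24.4 and *Thy1* rose from 45.7 to 246 and 312. The part of these marker differences in the results on the remodeller genes was not tested, and in such bulk samples fewer cells of a type and less RNA per cell cannot be told apart.

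The question asked of the 10 genes was whether their transcripts differed between each *Rbbp4* mutant and the control. *Baz1a* was more than 3 times as abundant in both mutants and *Smarca5* rose slightly, while the ISWI ATPase gene *Smarca1* and the BAF genes *Arid1b*, *Arid1a* and *Smarcc1* fell in both. *Bptf* fell slightly in Ins/Ins, and *Smarca4*, *Smarca2* and *Smarcc2* did not pass the test in either line. With edgeR's quasi-likelihood test and Benjamini-Hochberg adjustment over 14125 tested genes, at an adjusted p of at most 0.01, 2 of the 10 genes rose and 5 fell in Ins/Ins, while in Ins/Del 2 rose and 4 fell. Changes were common in both lines. Of all tested genes, 58.4% passed in Ins/Ins (29.0% higher and 29.4% lower) and 62.5% in Ins/Del (30.6% higher and 31.9% lower), so the share of remodeller genes that passed was near that of all genes. The median absolute log2 fold change of the 10 genes was 0.22 in Ins/Ins and 0.36 in Ins/Del, and over all tested genes it was 0.30 and 0.34. Only *Baz1a* of the 10 changed more than 2-fold, against 16.6% and 19.2% of all tested genes in Ins/Ins and Ins/Del. The libraries of mutant and control did not overlap for 8 of the 10 genes in Ins/Ins (3 higher and 5 lower), where this held for 69.1% of all tested genes (34.9% higher and 34.2% lower). In Ins/Del it was again 8 of the 10 (4 higher and 4 lower), where it held for 72.8% of all tested genes (35.9% higher and 36.9% lower). The comparisons of the mutants with the control share the 3 control libraries and are given side by side.

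**Figure D1:**
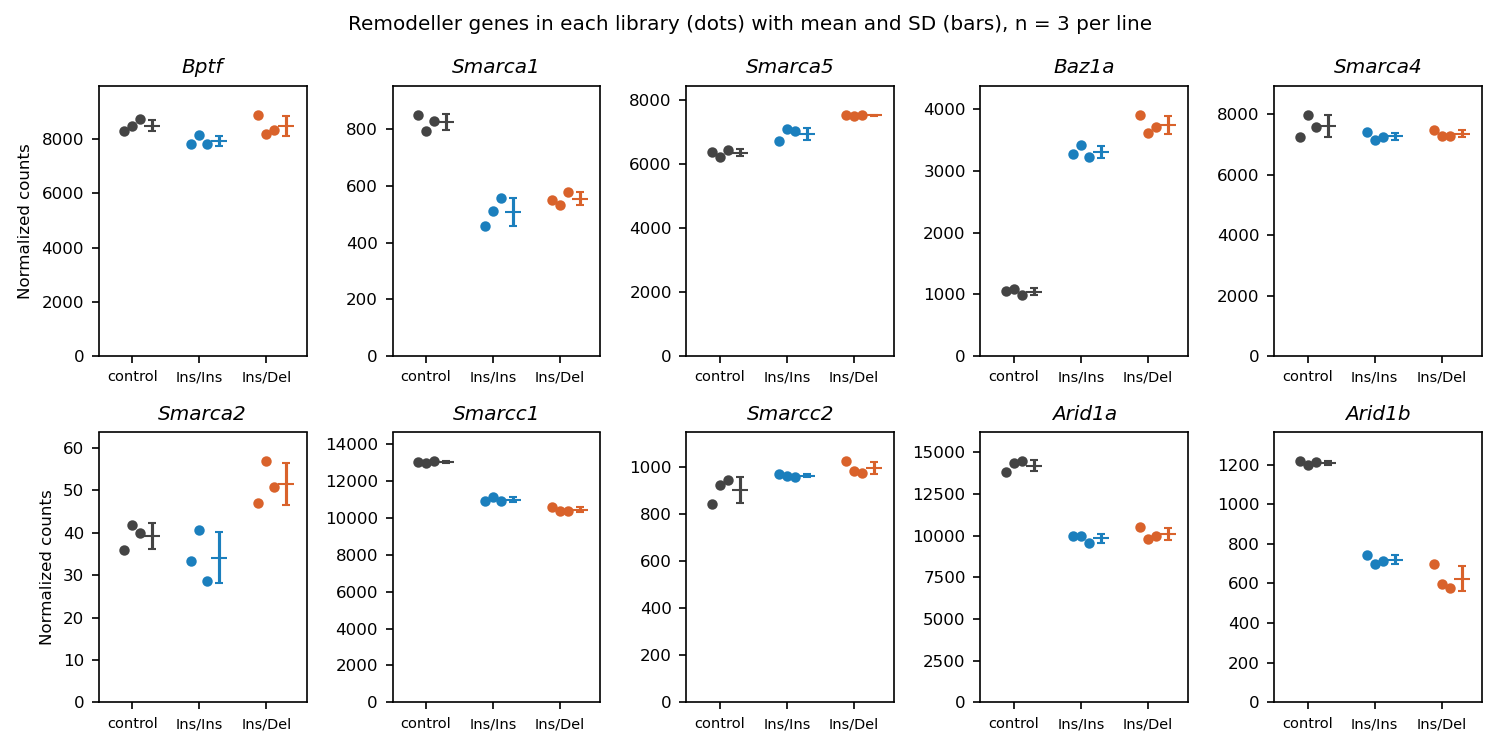
Normalized counts (vertical axes, each from 0) of the 10 remodeller genes in control, Ins/Ins and Ins/Del ESCs. Dots are single libraries and bars show the mean and SD of 3 libraries. The 6 mutant libraries of *Baz1a* sit between 3234 and 3911, all above the control libraries, and those of *Arid1a*, *Arid1b*, *Smarca1* and *Smarcc1* lie below all control libraries.

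**Figure D2:**
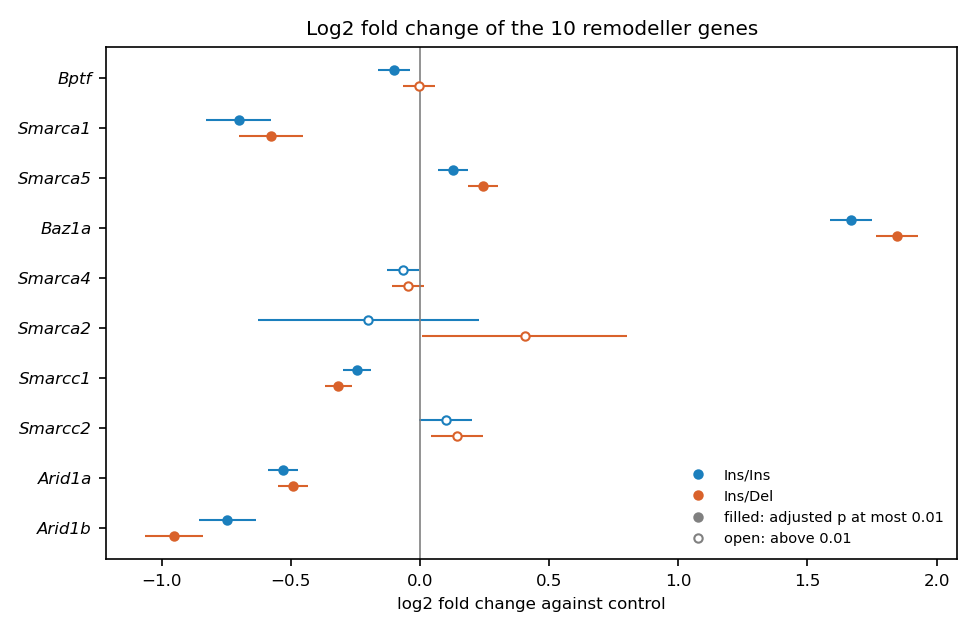
Log2 fold change against the control (horizontal axis) of each gene in Ins/Ins and Ins/Del, with 95% intervals from the edgeR fit. Filled dots passed an adjusted p of 0.01. *Baz1a* stands at 1.67 and 1.85, and *Arid1b*, at -0.75 and -0.95, is the lowest of the 10 genes in both lines.

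Among the NURF and ISWI genes, the partner *Baz1a* and the ATPase genes changed in both mutants, and the NURF scaffold *Bptf* passed the test in one of them. *Bptf* (ENSMUSG00000040481.17, chr11:107033081-107132127, minus strand of mm10) encodes the largest NURF subunit, which anchors the complex to histone H3 methylated on lysine 4. Its normalized counts were 8303, 8472 and 8727 in control cells, 7806, 8153 and 7823 in Ins/Ins and 8895, 8206 and 8323 in Ins/Del. The Ins/Ins libraries were all below the control libraries, whereas those of Ins/Del overlapped them. The log2 fold change was -0.10 ± 0.031 (SE, adjusted p = 0.004) in Ins/Ins and -0.0041 ± 0.031 (SE, adjusted p = 0.91) in Ins/Del, where the 95% interval was -0.066 to 0.058. The fall in Ins/Ins was small, and it no longer passed without the second or the third control library or without the first or the third Ins/Ins library, each left out alone, with log2 fold changes of -0.092 to -0.072 and adjusted p-values of 0.016 to 0.050.

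*Smarca5* (ENSMUSG00000031715.14, chr8:80698507-80739497, minus strand) encodes SNF2H, the ISWI ATPase of most tissues, and *Smarca1* (ENSMUSG00000031099.16, chrX:47809368-47892974, minus strand) encodes SNF2L, its close relative. *Smarca5* had 6378, 6211 and 6428 normalized counts in the control, 6704, 7068 and 7016 in Ins/Ins and 7506, 7503 and 7521 in Ins/Del. Every library of a line was above every library of the line before it. *Smarca5* rose by 0.13 ± 0.029 (SE, adjusted p = 1.89e-04) in Ins/Ins and 0.24 ± 0.029 (SE, adjusted p = 1.22e-09) in Ins/Del on the log2 scale. *Smarca1* moved the other way, with 851, 794 and 828 normalized counts in the control, 459, 511 and 557 in Ins/Ins and 551, 534 and 578 in Ins/Del. All 6 mutant libraries were below the control libraries, and the mutant lines overlapped each other. The log2 fold change of *Smarca1* was -0.70 ± 0.061 (SE, adjusted p = 7.13e-13) and -0.58 ± 0.061 (SE, adjusted p = 8.37e-11), a level 1.63-fold and 1.49-fold lower. *Smarca1* lies on the X chromosome, where the median log2 fold change of 531 tested genes was -0.20 in both mutants. Its 13 tested neighbours within 1 Mb had medians of 0.056 and 0.15, and 10 of them had a higher log2 fold change than *Smarca1* in each line. The part of the lower X-chromosome median in the *Smarca1* result was not tested. Another annotated gene on the same strand shares 3.61% of the exonic length of *Smarca5*.

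The start sites of both ISWI ATPase genes and of *Arid1a* differ in base composition, and the 250 bases before each RefSeq start (GRCm38.p6, the mm10 build) are shown because these genes changed in both mutants in different directions. All 3 genes are on the minus strand, at chrX:47892614-47892863 for *Smarca1*, chr8:80739460-80739709 for *Smarca5* and chr4:133756770-133757019 for *Arid1a*. The RefSeq start lies 361 bases inside the GENCODE gene for *Smarca1* and 38 bases inside it for *Smarca5*. Capitals mark GGGCGG (the GC box bound by Sp1-type factors) and CCAAT on either strand.
Smarca1: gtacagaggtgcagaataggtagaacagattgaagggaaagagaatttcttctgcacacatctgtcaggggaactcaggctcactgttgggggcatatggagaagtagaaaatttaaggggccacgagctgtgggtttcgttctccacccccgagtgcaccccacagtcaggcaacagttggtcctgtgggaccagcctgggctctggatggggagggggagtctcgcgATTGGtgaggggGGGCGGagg
Smarca5: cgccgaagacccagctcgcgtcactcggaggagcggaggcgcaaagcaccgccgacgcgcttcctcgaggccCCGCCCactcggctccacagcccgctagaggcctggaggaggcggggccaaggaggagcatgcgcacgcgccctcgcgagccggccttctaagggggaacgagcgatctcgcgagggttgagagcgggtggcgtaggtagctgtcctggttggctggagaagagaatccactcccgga
Arid1a: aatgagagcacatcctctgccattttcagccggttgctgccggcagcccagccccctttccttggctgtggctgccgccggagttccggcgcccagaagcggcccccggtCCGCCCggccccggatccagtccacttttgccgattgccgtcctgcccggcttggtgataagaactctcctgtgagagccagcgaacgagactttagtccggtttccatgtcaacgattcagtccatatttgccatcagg

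Counted over windows of 300 bases, from 250 before to 50 after the start, 9 of the 10 genes had an entry, with 10 windows in all (2 for *Arid1a*). *Baz1a* had none. All 10 windows held GGGCGG on either strand, which 35.7% of 32851 promoter windows of the same length held. These windows were rich in G and C, at 58.7% to 81.0% against a median of 52.7% over all windows. The part of this base composition in the GGGCGG matches was not tested. CCAAT was found only in the *Smarca1* window (37.4% of all windows), and the E-box CACGTG only in that of *Bptf* (7.15% of all windows). No window held TATAAA (13.6%), TTTGAA (17.9%) or CCGGAAGT (3.89%), and the only overlaps among these matches were GGGCGG with itself. The *Smarca1* window had an observed to expected CpG ratio of 0.41, near the median of 0.38 over all windows, against 0.94 for *Smarca5* and 0.79 for the *Arid1a* window shown above. A match is a description of the letters and not a measured binding site.

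*Baz1a* (ENSMUSG00000035021.13, chr12:54892989-55014348, minus strand) encodes ACF1, the non-catalytic partner of SNF2H in ACF and CHRAC. It had 1049, 1090.4 and 981 normalized counts in the control, 3283, 3417 and 3234 in Ins/Ins and 3911, 3614 and 3717 in Ins/Del. No mutant library came near the control libraries, and each Ins/Del library was above each Ins/Ins library. The level rose 3.18-fold in Ins/Ins (log2 fold change 1.67 ± 0.041 (SE, adjusted p = 2.44e-30)) and 3.60-fold in Ins/Del (1.85 ± 0.040 (SE, adjusted p = 4.64e-32)). None of the 13 tested genes within 1 Mb of *Baz1a* had a log2 fold change as high. Their medians were 0.096 and -0.14, and the highest was *Nfkbia*, the gene of an inhibitor of NF-kB, at 0.78 and 0.72. An annotated gene on the same strand, *Gm20403*, shares 4.83% of the exonic length of *Baz1a*, and reads in that stretch cannot be assigned to one of the pair.

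Of the 6 BAF genes, 3 fell in both mutants and none rose, where 29.4% and 31.9% of all tested genes fell and 29.0% and 30.6% rose in Ins/Ins and Ins/Del. Both ARID genes of canonical BAF and the core scaffold *Smarcc1* fell, while neither ATPase gene passed the test. *Smarca4* (ENSMUSG00000032187.16, chr9:21616169-21704230, plus strand) encodes BRG1. It had 7253, 7981 and 7588 normalized counts in the control, 7409, 7160.3 and 7239.5 in Ins/Ins and 7486, 7284 and 7285 in Ins/Del. The control libraries spanned a wider range than the mutant libraries and included them in part. The log2 fold changes were -0.064 ± 0.031 (SE, adjusted p = 0.061) and -0.048 ± 0.031 (SE, adjusted p = 0.16), with 95% intervals of -0.13 to -0.0023 and -0.11 to 0.014, and the first passed once the first control library was left out (-0.10, adjusted p = 0.0074). *Smarca2* (ENSMUSG00000024921.17, chr19:26605050-26778322, plus strand), the BRM gene, was close to silent, with 35.9, 41.9 and 40.1 normalized counts in the control, 33.4, 40.6 and 28.5 in Ins/Ins and 47.0, 56.8 and 50.9 in Ins/Del. The Ins/Del libraries were above all others and the Ins/Ins libraries overlapped the control. At these counts the log2 fold changes of -0.20 ± 0.21 (SE, adjusted p = 0.41) and 0.40 ± 0.20 (SE, adjusted p = 0.063) did not pass. Their 95% intervals of -0.63 to 0.23 and 0.0087 to 0.80 do not exclude changes of moderate size. The second interval, which is not adjusted for the number of genes tested, lies above 0.

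*Smarcc1* (ENSMUSG00000032481.17, chr9:110117708-110240178, plus strand), for BAF155, had 12998, 12946 and 13047 normalized counts in the control, 10888, 11130.3 and 10914 in Ins/Ins and 10596, 10375 and 10343 in Ins/Del. The lines did not overlap, with the control highest and Ins/Del lowest. It fell by 0.24 and 0.32 on the log2 scale (adjusted p = 1.49e-10 and 1.25e-13), a level 1.18-fold and 1.25-fold lower. The gene *Dhx30* on the opposite strand overlaps 1.57% of its exonic length. Its paralogue *Smarcc2* (ENSMUSG00000025369.15, chr10:128459248-128490482, plus strand), for BAF170, had 840.4, 922 and 945 normalized counts in the control, 970.0, 961 and 959 in Ins/Ins and 1023, 984 and 975 in Ins/Del. All 6 mutant libraries were above the 3 control libraries, yet the log2 fold changes of 0.10 ± 0.050 (SE, adjusted p = 0.079) and 0.14 ± 0.050 (SE, adjusted p = 0.0105) did not pass. The value in Ins/Del missed narrowly and passed the same threshold under 5 alternative settings, with log2 fold changes of 0.15 to 0.19 and adjusted p-values of 0.0025 to 0.0075.

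*Arid1a* (ENSMUSG00000007880.16, chr4:133679008-133756769, minus strand) and *Arid1b* (ENSMUSG00000069729.14, chr17:4994332-5347656, plus strand) encode the mutually exclusive DNA-binding subunits of canonical BAF. *Arid1a* had 13808, 14348 and 14462 normalized counts in the control, 9985, 9976 and 9551 in Ins/Ins and 10506, 9819 and 9981 in Ins/Del. The mutant lines overlapped each other and were both far below the control. The log2 fold change was -0.53 ± 0.029 (SE, adjusted p = 6.87e-19) in Ins/Ins and -0.49 ± 0.029 (SE, adjusted p = 5.48e-18) in Ins/Del. *Arid1b* had 1216, 1198 and 1215 normalized counts in the control, 745, 701 and 714 in Ins/Ins and 699, 596 and 579.6 in Ins/Del. Its 3 control libraries were nearly equal and no mutant library came near them. It fell by 0.75 in Ins/Ins and 0.95 in Ins/Del on the log2 scale (adjusted p = 3.58e-15 and 3.62e-18), a level 1.68-fold and 1.93-fold lower. All 10 tested genes within 1 Mb of *Arid1b* had a higher log2 fold change than *Arid1b* in both lines, with medians of 0.41 and 0.45. For *Arid1a*, 43 of 50 tested neighbours in Ins/Ins and 42 of 50 in Ins/Del had a higher value, with medians of 0.24 and 0.23.

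Levels of different genes were compared per length, as normalized counts per kb of exon. In the control the order was *Smarcc1* (1659), *Arid1a* (1238), *Smarca4* (1175), *Smarca5* (815), *Bptf* (604), *Smarcc2* (163), *Baz1a* (145), *Smarca1* (135), *Arid1b* (96.0) and *Smarca2* (2.75). The library ranges of *Arid1a* and *Smarca4*, of *Smarcc2* and *Baz1a*, and of *Baz1a* and *Smarca1* overlapped, and those of the other neighbours in this order did not. *Smarcc1* was above 97.1% of 13891 tested genes with a known exon length, and *Smarca2* was above 4.92%. *Smarcc1* stood at the top in the control and *Smarca4* was the third, each above its paralogue (*Smarcc2* and *Smarca2*). In the mutants *Baz1a* moved from seventh to the sixth place, at 463 in Ins/Ins and 523 in Ins/Del, and from above 60.7% of the genes to above 85.1% and 86.7%. *Arid1a* moved from second to the fourth place, at 857 and 880, where its range overlapped that of *Smarca5* in Ins/Ins and was below it in Ins/Del. *Arid1b* stood at 57.1 in Ins/Ins and 49.6 in Ins/Del. The order depended on the length used. With the longest annotated transcript in place of all exons, *Arid1a* had the second highest mean in every line. It was 1735 in the control, 1202 in Ins/Ins and 1234 ± 43.9 (SD, n = 3) in Ins/Del, where *Smarca5* was hardly lower at 1228.5 ± 1.64 (SD, n = 3). In the control *Baz1a* (168 ± 8.94, SD, n = 3) had a mean slightly below that of *Smarca1* (172 ± 5.95, SD, n = 3). *Baz1a* was the sixth in both mutants (535 and 606).

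**Figure D3:**
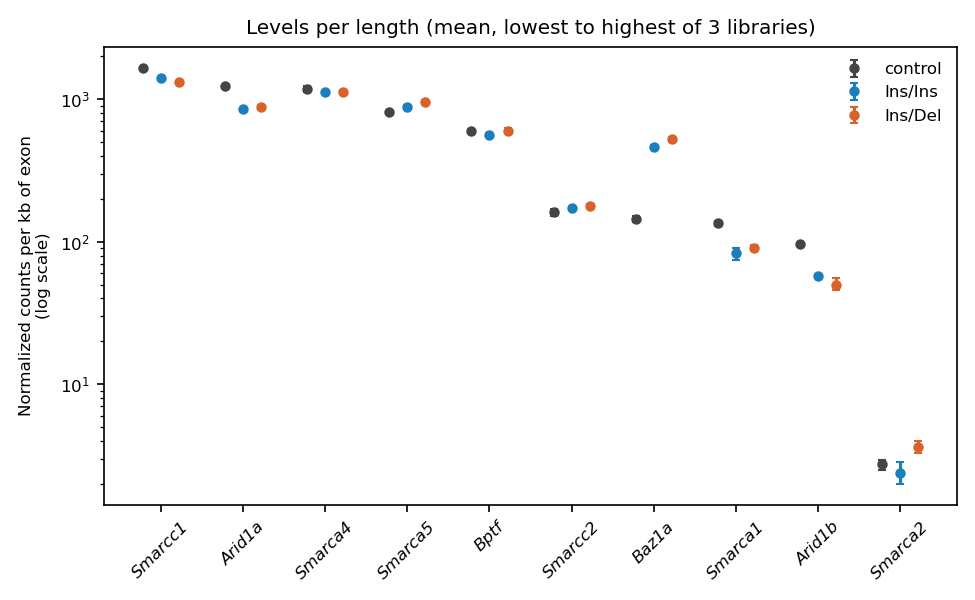
Normalized counts per kb of exon (log scale) of the 10 genes in the 3 lines, ordered by the control level. Dots are means and bars run from the lowest to the highest of 3 libraries. *Smarcc1* is highest in every line and *Smarca2* lowest, and *Baz1a* moves from 145 in the control to 463 and 523.

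The balance between paralogues was measured within each library as a ratio of raw counts, in which library size cancels. The ratio of *Smarca5* to *Smarca1* was 7.50, 7.82 and 7.76 in the control, 14.59, 13.83 and 12.59 in Ins/Ins and 13.62, 14.05 and 13.00 in Ins/Del. Both mutants lay above the control without overlap, by 0.83 and 0.82 on the log2 scale. Per kb of exon, *Smarca1* made up 14.2% of the ISWI ATPase pair in the control, 8.53% in Ins/Ins and 8.58% in Ins/Del. The ratio of *Arid1a* to *Arid1b* was 11.36, 11.97 and 11.91 in the control, 13.40, 14.24 and 13.38 in Ins/Ins and 15.02, 16.49 and 17.22 in Ins/Del, with no overlap between mutants and control and log2 differences of 0.22 and 0.47. The ratio of *Smarcc1* to *Smarcc2* was 14.4 ± 0.898 (SD, n = 3) in the control, 11.4 ± 0.176 in Ins/Ins and 10.5 ± 0.131 in Ins/Del, with log2 differences of -0.34 and -0.46 and no overlap. The ratio of *Smarca4* to *Smarca2* was 194 ± 6.96 (SD, n = 3) in the control, 217 ± 38.9 in Ins/Ins and 143 ± 15.5 in Ins/Del, and it overlapped the control in Ins/Ins. With 3 libraries against 3, a two-sided exact permutation test cannot give a p below 0.10. The exact permutation test gave p = 0.10 for 7 of the 8 comparisons (adjusted p = 0.11 over the 8) and p = 0.40 for *Smarca4* to *Smarca2* in Ins/Ins, so none passed a threshold of 0.05.

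**Figure D4:**
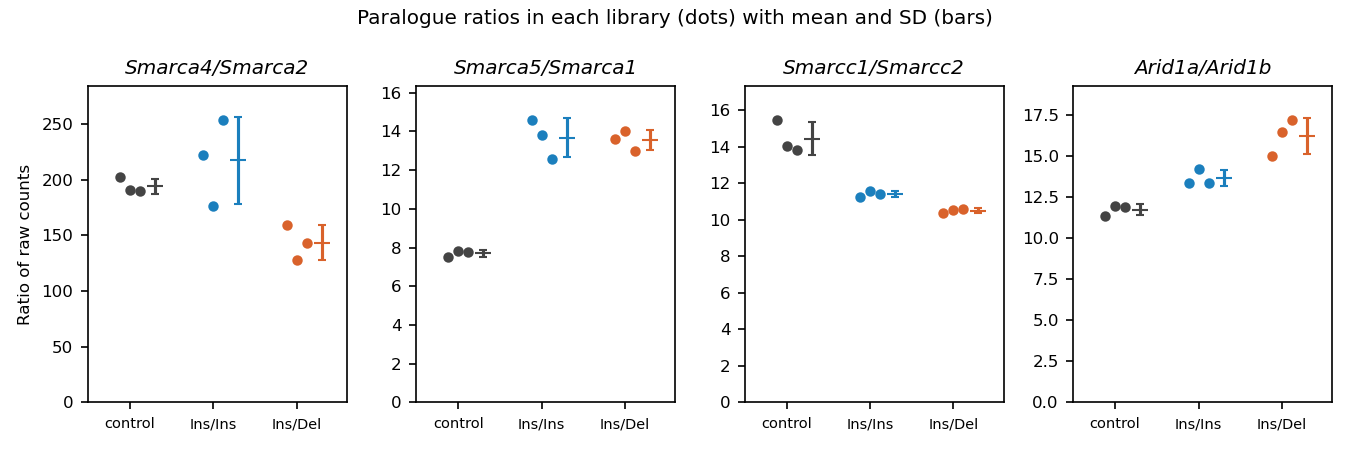
Ratio of raw counts of each paralogue pair (vertical axes, each from 0) in single libraries of the 3 lines, with the mean and SD of 3 libraries. The *Smarca5* to *Smarca1* ratio is 7.50 to 7.82 in the control and 12.6 to 14.6 in the mutants.

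The mutant lines were compared directly, since a gene past the threshold in one line alone is not shown to differ between them. *Baz1a* was 0.18 ± 0.035 (SE) higher in Ins/Del than in Ins/Ins on the log2 scale (adjusted p = 2.92e-04), and *Smarca5* was 0.12 ± 0.029 (SE) higher (adjusted p = 0.0029). These 2 of the 10 genes passed, and none was lower, where 10.8% of all tested genes passed (6.17% higher and 4.64% lower). The *Smarca5* difference did not pass without the first Ins/Ins library or without any 1 of the Ins/Del libraries (0.093 to 0.12, adjusted p = 0.012 to 0.040). *Bptf*, which fell only in Ins/Ins, differed by 0.10 ± 0.031 (SE, adjusted p = 0.022) between the lines and did not pass. *Arid1b* differed by -0.21 ± 0.060 (SE, adjusted p = 0.012), and passed without the first Ins/Del library (-0.29, adjusted p = 8.57e-04) and with all genes of at least 1 read tested (-0.21, adjusted p = 0.0054). *Smarca2*, with low counts, had the largest difference of the 10 genes (0.60, 95% interval 0.20 to 1.01, adjusted p = 0.030) and did not pass. *Smarcc1* differed by -0.072 (adjusted p = 0.048) and did not pass either. The differences of *Arid1a* and *Smarca4* had 95% intervals of -0.021 to 0.10 and -0.046 to 0.078. Among the 35 other tested subunits of these complexes, *Rbbp4*, *Actb* and *Bicral* were higher in Ins/Del than in Ins/Ins and *Rbbp7*, *Smarce1* and *Phf10* were lower. The libraries of the mutant lines did not overlap for 7 of the 10 genes (5 higher and 2 lower in Ins/Del), against 34.1% of all tested genes (17.4% higher and 16.7% lower).

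The remaining subunits of these complexes were examined by lists. Of 36 listed genes, 35 were tested, of which 4 rose and 12 fell in Ins/Ins, while in Ins/Del 5 rose and 18 fell. Over all tested genes the shares were 29.0% higher and 29.4% lower in Ins/Ins, and 30.6% higher and 31.9% lower in Ins/Del. The Ins/Del count of lower genes was 13 to 17 when single libraries were left out and 13 with DESeq2. The median log2 fold change of the 35 genes was -0.052 and -0.12, and that of all tested genes was 0.0038 and -0.011. Among 4 other NURF subunits, *Rbbp4* fell in Ins/Ins and the HMG-box gene *Hmgxb4* rose in Ins/Del (0.16). The homologue *Rbbp7*, the alternative histone-binding subunit, fell in Ins/Del (7987, 7802 and 7827 normalized counts in the control, 7372, 7536 and 7470.0 in Ins/Ins and 6703, 6630.1 and 6893 in Ins/Del). *Rbbp7* had log2 fold changes of -0.078 ± 0.028 (SE, adjusted p = 0.013) and -0.22 ± 0.028 (SE, adjusted p = 4.72e-09). The value in Ins/Ins missed narrowly, and it passed with DESeq2 (-0.079, adjusted p = 0.00797) and with scaling to total counts (-0.092, adjusted p = 0.00306). Of 7 other ISWI partners, 2 fell in Ins/Ins, and 4 fell and 1 rose in Ins/Del. Those that passed in Ins/Del alone were *Baz2b* (-0.20) and the CHRAC histone-fold pair *Chrac1* (-0.25) and *Pole3* (0.35), whose values had opposite signs. The *Chrac1* call was lost with DESeq2 (adjusted p = 0.041) and without any 1 of the control or Ins/Del libraries (0.014 to 0.037), and the *Baz2b* call with DESeq2 (0.013) and without the second or the third control or the third Ins/Del library (0.012 to 0.032). *Cecr2*, for a bromodomain partner of the ISWI ATPases, fell from 3729 ± 96.0 (SD, n = 3) normalized counts to 2949.8 ± 32.2 (SD, n = 3) in Ins/Ins and 2729 ± 84.0 (SD, n = 3) in Ins/Del. *Rsf1*, for the partner of SNF2H in the RSF complex, fell by 0.15 and 0.16 on the log2 scale. No other ISWI partner changed as far as *Baz1a*, since the 7 values ran from -0.34 to 0.16 in Ins/Ins and from -0.45 to 0.35 in Ins/Del.

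Among the subunits that BAF shares with PBAF, 1 of 10 tested genes rose and 4 fell in Ins/Ins, and 6 fell in Ins/Del. Over all tested genes, 29.0% rose and 29.4% fell in Ins/Ins, and 30.6% rose and 31.9% fell in Ins/Del. The gene that rose in Ins/Ins was *Smarcd2* (0.21), a paralogue of *Smarcd1*, and *Actb* fell there by 0.11, a call lost without the third Ins/Ins library (-0.086, adjusted p = 0.016). *Smarcd1*, for the adaptor BAF60a, had 3864, 3800.2 and 3742 normalized counts in the control, 2923, 2877 and 2841 in Ins/Ins and 2844, 2637 and 2704 in Ins/Del, with no overlap between mutants and control. Its log2 fold changes were -0.40 ± 0.033 (SE, adjusted p = 1.45e-13) and -0.48 ± 0.033 (SE, adjusted p = 7.32e-16). *Bcl7a* (-0.22 and -0.41) and *Smarce1* (-0.17 and -0.34), which encode small accessory subunits, fell in both lines. The *Bcl7a* call in Ins/Ins was lost with DESeq2 (-0.23, adjusted p = 0.012) and without the second or the third control or the second or the third Ins/Ins library (-0.21 to -0.16, adjusted p = 0.011 to 0.040). *Actl6b*, for the actin-related BAF53b of neurons, had 0 or 1 read in every library and was not tested. Of 7 canonical BAF subunits, 2 rose and 2 fell in Ins/Ins, and 2 rose and 3 fell in Ins/Del. *Bcl11a*, for a zinc finger protein of canonical BAF known from haematopoietic and neural cells, had 247, 230.4 and 275 normalized counts in the control, 38.5, 55.3 and 62.4 in Ins/Ins and 63.4, 52.3 and 41.7 in Ins/Del. It had the lowest log2 fold change of all 35 genes in both lines (-2.29 ± 0.14 (SE, adjusted p = 1.99e-17) and -2.24 ± 0.14 (SE, adjusted p = 2.65e-17)), and its relative *Bcl11b* fell by 0.85 and 0.76. *Dpf3*, for a PHD finger subunit of BAF known from muscle and neurons, had 4.27, 9.43 and 7.58 normalized counts in the control, 18.0, 21.4 and 16.9 in Ins/Ins and 29.6, 21.7 and 34.7 in Ins/Del. These counts were low throughout, and the mutant libraries were all above the control libraries (1.42 ± 0.38 (SE, adjusted p = 0.0013) and 2.01 ± 0.35 (SE, adjusted p = 3.62e-06)). The call in Ins/Ins was lost without the first control library (1.122, adjusted p = 0.019). *Dpf1*, its neural relative, rose by 0.43 and 0.72, and *Dpf2*, the widely expressed relative, fell in Ins/Del (-0.12). The *Dpf2* call was lost in 9 of 16 alternatives, with DESeq2 (adjusted p = 0.028), with all genes of at least 1 read (0.012), with only the groups compared (0.016) and without any 1 of the control libraries, the first Ins/Ins or the second or the third Ins/Del library (0.012 to 0.057).

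PBAF uses ARID2 and polybromo in place of the ARID1 proteins, and genes of both fell. *Arid2* had 4235, 4177 and 4353 normalized counts in the control, 2369, 2444 and 2309.9 in Ins/Ins and 2278, 2166 and 2067 in Ins/Del, and its log2 fold changes of -0.84 ± 0.035 (SE, adjusted p = 7.76e-23) and -0.97 ± 0.035 (SE, adjusted p = 9.07e-25) were of the size seen for *Arid1b*. *Pbrm1* fell by 0.38 and 0.31, and *Phf10* fell in Ins/Del (-0.22) with a value of 0.014 in Ins/Ins. Of 4 PBAF subunits, 2 fell in Ins/Ins and 3 in Ins/Del, and none rose. Over all tested genes, 29.4% fell and 29.0% rose in Ins/Ins, and 31.9% fell and 30.6% rose in Ins/Del. The non-canonical BAF complex carries a GLTSCR1-type subunit, of which the cell has a pair of genes. *Bicral* rose from 1974 ± 26.7 (SD, n = 3) normalized counts to 2981 ± 35.6 (SD, n = 3) in Ins/Ins and 3255 ± 22.9 (SD, n = 3) in Ins/Del, and *Bicra* fell by 0.31 and 0.42 on the log2 scale. The third tested subunit of that complex, *Brd9*, did not pass in either line (-0.094 and -0.11).

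**Figure D5:**
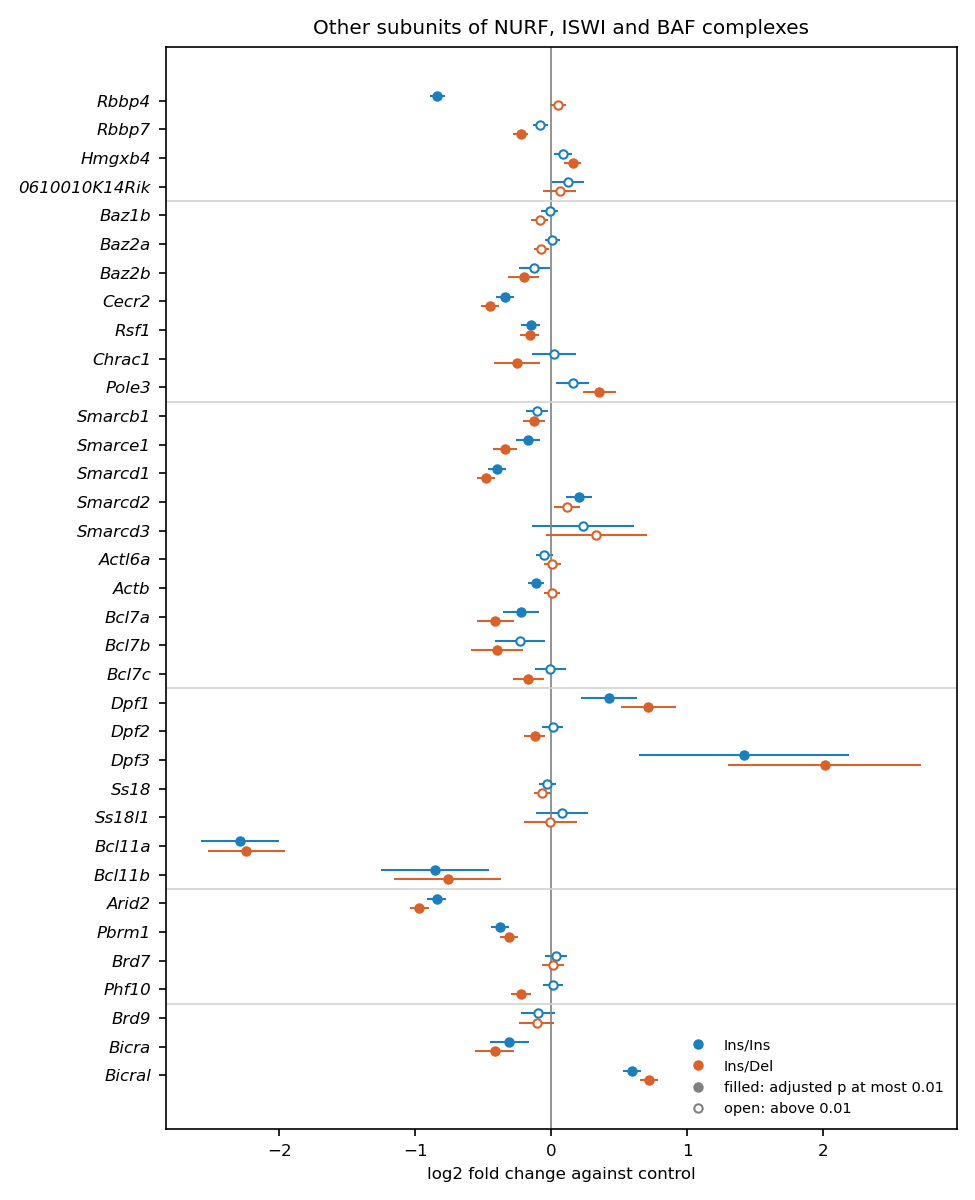
Log2 fold change against the control (horizontal axis) of the 35 other tested subunits in Ins/Ins and Ins/Del, with 95% intervals. Filled dots passed an adjusted p of 0.01, and grey lines part, from the top, NURF, other ISWI partners, shared BAF and PBAF, canonical BAF, PBAF and non-canonical BAF subunits. *Bcl11a* stands apart at -2.29 and -2.24, and *Dpf3* at 1.42 and 2.01.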

How the data were processed

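The authors prepared mRNA libraries from total RNA, aligned reads to mm10 with STAR 2.7.3 and used HTSeq to count the reads of each gene. The deposited files hold raw counts per gene symbol, and the strand setting and annotation are not given in the sources used here, so reads in overlapping exons cannot be assigned to 1 gene. edgeR 4.0.16 (R 4.3.3) scaled the counts with TMM factors, removed low genes with filterByExpr and fitted the quasi-likelihood model to all 9 libraries (3 lines, no covariate). Benjamini-Hochberg adjustment covered 14125 genes, and adjusted p-values of at most 0.01 passed. Normalized counts are counts divided by effective library size and multiplied by its mean. Each standard error (SE) was obtained as the absolute log2 fold change over the root of its F statistic. Exon lengths and positions come from GENCODE M21. The fits were tested on simulated data. The members and gene lists were chosen with earlier results of these data known. Named beside the 10 genes, *Rbbp4* and *Rbbp7* are up to 4 genes per list that passed in both mutants in the same direction, with the largest mean absolute log2 fold change, and listed genes too low to test. *Brd9*, *Hmgxb4*, *Baz2b*, *Chrac1*, *Pole3*, *Smarcd2*, *Actb*, *Dpf2*, *Phf10*, *Ino80*, *Hells*, *Atrx* and *Smarcad1* were named after their values were seen. Replicates were no copies of each other, since chi-square per gene between them was 1.87 to 4.62. Alternatives were DESeq2 1.42.0, its size factors, scaling to total counts, no filter beyond 1 read in any library, only the groups compared, a replicate block, each library left out and an adjusted p of 0.05.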

Additional observations from a re-analysis of the deposited data

Results flagged for a closer look

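Of all tested genes, 10.8% passed in the direct comparison of the mutant lines. *Actb*, *Phf10*, *Ino80*, *Hells*, *Atrx* and *Smarcad1* were named after their values were seen, so the count that follows is not that of a list fixed beforehand. In this comparison, levels differed by edgeR's test for 14 of the named genes, with log2 differences of Ins/Del against Ins/Ins. Among the 10 remodeller genes these were *Smarca5* (0.12, adjusted p = 0.0029) and *Baz1a* (0.18, adjusted p = 2.92e-04), both higher in Ins/Del. *Rbbp4* was higher in Ins/Del by 0.89 (adjusted p = 4.08e-24) and *Rbbp7* lower (-0.15, adjusted p = 1.89e-04). *Smarce1* (-0.17), *Phf10* (-0.24), *Chd7* (-0.21) and *Atrx* (-0.14) were lower in Ins/Del, and *Bicral* (0.13), *Actb* (0.12), *Chd5* (0.28), *Ino80* (0.36), *Hells* (0.13) and *Smarcad1* (0.26) were higher. Several of these calls were lost under single alternatives. *Smarce1* did not pass with DESeq2 (-0.16, adjusted p = 0.023) or without any 1 of the Ins/Ins libraries or the second or the third Ins/Del library (-0.18 to -0.16, adjusted p = 0.013 to 0.034). *Chd5* did not pass with DESeq2 (0.29, adjusted p = 0.019) or without the second or the third Ins/Ins library or any 1 of the Ins/Del libraries (0.24 to 0.29, adjusted p = 0.015 to 0.035). *Bicral* did not pass without the first or the second Ins/Ins library or any 1 of the Ins/Del libraries (0.12 to 0.13, adjusted p = 0.011 to 0.025), and *Smarca5* without the first Ins/Ins library or any 1 of the Ins/Del libraries (0.093 to 0.12, adjusted p = 0.012 to 0.040). *Hells* did not pass without the first Ins/Ins or the second Ins/Del library (0.11 and 0.12, adjusted p = 0.020 and 0.014), *Atrx* without the second Ins/Ins or the second Ins/Del library (-0.096 and -0.13, adjusted p = 0.058 and 0.028), and *Actb* without the third Ins/Ins or the first Ins/Del library (0.095 and 0.088, adjusted p = 0.034 and 0.047). For *Rbbp4*, *Rbbp7*, *Baz1a*, *Phf10*, *Chd7*, *Ino80* and *Smarcad1* none of the 16 alternatives lost the call, although 1 of them, the main fit at an adjusted p of 0.05, could not lose it.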

How the results depend on the processing

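Each comparison was examined under 16 alternatives. Among these, 1 was the main fit read at an adjusted p of 0.05, which cannot lose a call or change a direction. Leaving out a library of the line outside a comparison kept all libraries of the lines compared. Of the 160 values of the 10 genes against the control, 155 in Ins/Ins and 146 in Ins/Del kept their direction and side of the threshold, as did 150 in the direct comparison. The genes that passed in both lines (*Baz1a*, *Smarca5*, *Smarca1*, *Arid1a*, *Arid1b* and *Smarcc1*) kept direction and call against the control in both under all 16. Reversals were limited to values that did not pass. *Bptf* in Ins/Del turned to 0.00496 (DESeq2), 0.00425 (its size factors) and 0.00960 (only the groups compared), and ran from -0.038 to 0.025 without single libraries. *Smarcad1* in Ins/Del turned to 0.00177 (DESeq2), 0.00108 (size factors) and 0.00651 (only the groups compared) and ran from -0.038 to 0.026. Scaling to total counts turned *Actb* in Ins/Del to -0.00942, *Dpf2* in Ins/Ins to -0.00221 and *Phf10* in Ins/Ins to -0.000220, and without single libraries *Actb* ran from -0.024 to 0.028 and *Chrac1* in Ins/Ins from -0.082 to 0.10. In the direct comparison, *Chd8* turned to 0.00501 (DESeq2) and 0.00600 (size factors) and ran from -0.022 to 0.017, *Rsf1* turned to 0.000707 (size factors) and ran from -0.028 to 0.0064, *Brd9* ran from -0.079 to 0.031, *Bcl11a* from -0.16 to 0.20 and *Bcl11b* from -0.031 to 0.18 without single libraries. The cause was not tested. Direct counts moved most. Among the 10 genes, 1 was lower with all genes of at least 1 read, 4 were higher and 2 lower at an adjusted p of 0.05, and without single libraries 1 to 2 were higher and 0 to 1 lower. Among the 35 other subunits, 6 were lower with only the groups compared, 5 were higher and 10 lower at 0.05, and without single libraries 1 to 3 were higher and 2 to 5 lower (1 and 5 without the first Ins/Del library). Of the 17 other ATPases, 4 were lower at 0.05, and without single libraries 2 to 4 were higher and 1 to 2 lower (2 and 1 without the second Ins/Del library, and 1 lower without the second Ins/Ins library). In the main fit 6.17% of all tested genes were higher and 4.64% lower at 0.01. Shares of all tested genes under the alternatives are not given here, so these counts cannot be set against them. Same-numbered libraries of different lines correlated between -0.028 and 0.056 over 9 pairs in their deviations, so the numbers were not taken to pair samples, and with a replicate block the counts of the 10 genes (2 higher and 5 lower in Ins/Ins, 2 higher and 4 lower in Ins/Del) and the direct counts (2 higher and 0 lower) were as without it. *Actl6b* was too low to test, *Smarca2* and *Dpf3* had low counts and wide intervals, and exact tests of 3 against 3 libraries cannot pass 0.05.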

Other observations

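Other ATPases of the SNF2 family, which form the CHD, INO80, SWR1 and related remodellers, were examined as a list of 17 genes. In Ins/Ins 3 of them rose and 10 fell, and in Ins/Del 3 rose and 8 fell, with medians of -0.27 and -0.11 on the log2 scale. Of all tested genes, 29.0% rose and 29.4% fell in Ins/Ins, and 30.6% rose and 31.9% fell in Ins/Del. *Chd7*, for a CHD protein that binds enhancers, had 5291, 5543 and 5517 normalized counts in the control, 2492, 2518 and 2433 in Ins/Ins and 2289, 2073 and 2077 in Ins/Del. *Chd8*, its relative, had 5438, 5562 and 5639 in the control, 2541, 2687 and 2584 in Ins/Ins and 2567, 2588 and 2626 in Ins/Del. Both were lower in every mutant library than in every control library, with log2 fold changes of -1.13 ± 0.035 (SE, adjusted p = 4.22e-27) and -1.34 ± 0.035 (SE, adjusted p = 2.13e-29) for *Chd7* and -1.09 ± 0.032 (SE, adjusted p = 7.30e-28) and -1.10 ± 0.032 (SE, adjusted p = 5.23e-28) for *Chd8*. In the direct comparison 4 of the 17 genes were higher in Ins/Del than in Ins/Ins (*Ino80*, *Chd5*, *Smarcad1* and *Hells*) and 2 were lower (*Chd7* and *Atrx*). In that comparison 6.17% of all tested genes were higher and 4.64% lower. *Chd3*, for an ATPase of NuRD, fell by 0.49 and 0.70. *Chd5*, the CHD gene of neurons and testis, rose from 224 ± 37.5 (SD, n = 3) normalized counts to 441 ± 19.7 (SD, n = 3) in Ins/Ins and 535 ± 9.49 (SD, n = 3) in Ins/Del.

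A pseudogene named after *Smarca5*, *Smarca5-ps*, had 159.9, 136 and 145 normalized counts in the control, 94.1, 80.1 and 113 in Ins/Ins and 117, 90.2 and 92.6 in Ins/Del. These are few beside the counts of *Smarca5*, and how reads were split between the pair is not given in the sources used here.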
